A study of Sus scrofa with 226 samples.

Results

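OSMR-positive neurons with a high recorded value under 20 Hz stimulation were compared with OSMR-positive neurons with a low one, in a Patch-seq study of single pig sensory neurons from dorsal root ganglia, where the cell bodies of touch, pain and itch fibres lie. Patch-seq records a neuron electrically and then sequences its RNA. A neuron was taken as OSMR-positive at an OSMR (ENSSSCG00000016851) level of at least 50 CPM, where CPM is a gene's count scaled by the total count of the neuron. This held for 66 neurons, 29.2% of all those sequenced, and all 66 had a value recorded at 20 Hz. That value had a median of 10 in these neurons and was never above 20, and the files give it no unit. It was above the median in 27 neurons and at or below it in 39. The other neurons with a 20 Hz value are called OSMR-low, and 1 neuron had no such value. All neurons were of wild-type pigs, had been dissociated from cervical, thoracic and lumbar ganglia, were recorded with a patch pipette after 1, 2 or 3 days in culture, and were then collected whole for Smart-Seq2 sequencing. Dissociation cuts the axons, so the recordings are from cell bodies. The 10 animals were 11, 12, 14, 15, 17, 18 or 20 weeks old. No treatment was compared. The split was made on the recorded value itself, so the 20 Hz values, the values at other frequencies and the OSMR level are descriptions with no test.

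OSMR and IL31RA code for the subunits of the receptor for the cytokine IL-31, and OSMR also pairs with IL6ST as a receptor for oncostatin M. Both receptors signal through the kinase JAK1. In rodents and humans these genes mark a class of unmyelinated C-fibre neurons that also makes the peptides somatostatin (SST) and natriuretic peptide B (NPPB). The submitters' design text names mechano-insensitive C-fibres as the cells whose markers were sought. Such fibres slow their conduction strongly during repeated firing.

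The classes differed in depth of sequencing and in the day of recording. The total count had a median of 658470 in neurons above the median, with a range of 185220 to 5506300, and a median of 885410 in neurons at or below it, with a range of 192140 to 3317700. Of the neurons recorded at 1 day in culture 8 were above the median and 25 at or below it. At 2 days these numbers were 16 and 9, and at 3 days 3 and 5. In the 8 animals that had both classes the mean day was 1.85 ± 0.31 above the median and 1.47 ± 0.38 at or below it (SD, n = 8). It was later above the median in 7 animals and equal in 1 (two-sided exact sign-flip permutation test, p = 0.0156). Cells above the median came from 8 animals and cells at or below it from 10. Animal 10 gave 4 cells above and 1 at or below, whereas animal 4 gave 2 above and 8 at or below.

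At the split, the neurons just inside had a 20 Hz value of 11, which 2 neurons had, and 8 neurons just outside had exactly 10. At the OSMR limit, the nearest neuron inside had 50.3 CPM and the nearest outside 47.9 CPM. Of the 9 OSMR-positive neurons under 100 CPM of OSMR, 8 were above the median at 20 Hz and 1 was at or below it.

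The values at the other frequencies split the same neurons well below 20 Hz. At 2 Hz and at 4 Hz, all 27 neurons above the median had the value 20. At 10 Hz, 26 of the 27 did and the remaining neuron had 18. Of the 39 neurons at or below the median, 20 had the value 20 at 2 Hz, 15 at 4 Hz and 7 at 10 Hz. Their median was 20 at 2 Hz, 9 at 4 Hz, 6 at 10 Hz and 5 at 20 Hz. The 8 neurons with exactly 10 at 20 Hz had 19 or 20 at 10 Hz, so their values resembled those of the higher class up to that frequency. At 20 Hz the neurons above the median ranged from 11 to 20, and 18 of the 27 had 20. At 50 Hz the medians were 8 above the median and 2 at or below it, with ranges of 4 to 20 and 0 to 6. At 100 Hz the medians were 4 and 2. OSMR-low neurons, which were not split, had the value 20 at 20 Hz in 83% of neurons and a median of 16 at 50 Hz. At 100 Hz their median was 7. At 50 and 100 Hz the median of the neurons above the split thus lay between those of the other sets.

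**Figure D1:**
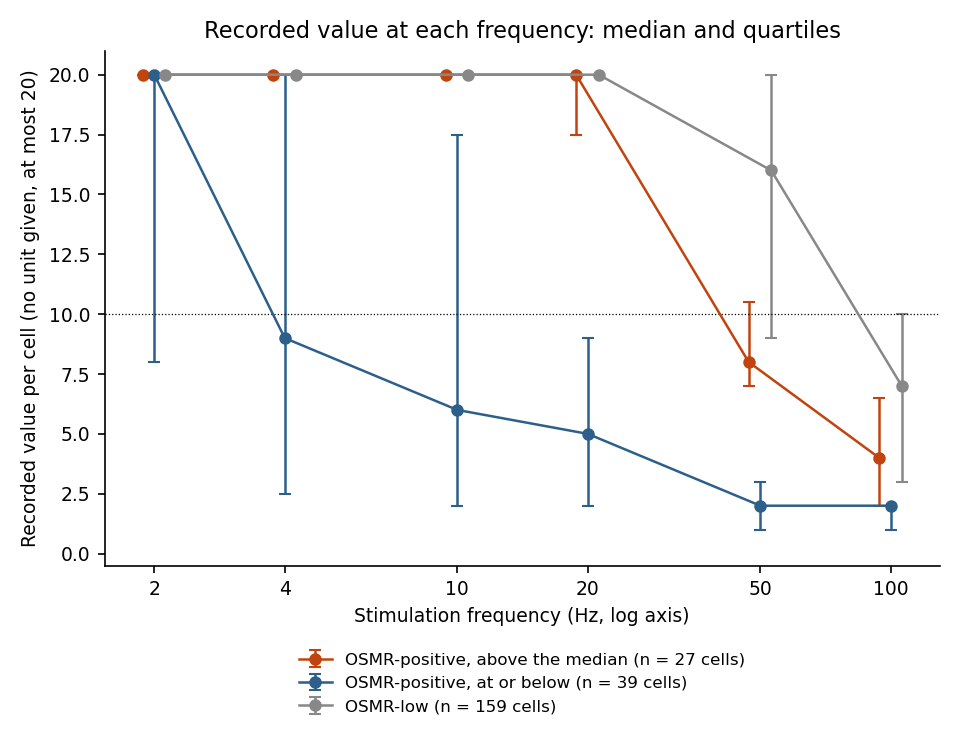
Recorded value per neuron (median, with bars for the lower and upper quartile; no unit is given and the highest value is 20) against stimulation frequency in Hz on a log axis, for OSMR-positive neurons above the 20 Hz median (n = 27), OSMR-positive neurons at or below it (n = 39) and OSMR-low neurons. The neurons at or below the median already have a median of 9 at 4 Hz, whereas those above it stay at 20 up to 20 Hz and have a median of 8 at 50 Hz.

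Membrane capacitance was lower in neurons above the 20 Hz median in every animal that had both classes. The column is named cslow, the name patch-clamp amplifiers give the whole-cell capacitance, which scales with the area of the cell membrane. The files give it no unit. It ranged from 21.5 to 141.7 in the 27 neurons above the median, with a median of 80.4, and from 52.5 to 192.2 in the 39 neurons at or below it, so the classes overlapped. The medians by day were 76.4 above the split and 138.3 at or below it at 1 day, 85.9 and 100.3 at 2 days, and 57.9 and 113.4 at 3 days. Means per animal above the median were 89 in animal 1, 83.3 in animal 2, 91.3 in animal 4, 75.1 in animal 5, 96.1 in animal 6, 86.8 in animal 7, 40.1 in animal 9 and 62.3 in animal 10. Those at or below it in the same animals were 97.6, 128.05, 126.5, 129.6, 169.2, 130.96, 134.9 and 118.1. The gap was narrowest in animal 1 and widest in animal 9. Over these 8 animals the means were 78 ± 18.6 above the median and 129.4 ± 19.9 at or below it (SD). The difference of -51.4 ± 25.6 had an exact p of 0.00781 in the two-sided sign-flip permutation test, the smallest that 8 animals allow. Adjusted over all 402 recorded columns tested (Benjamini-Hochberg), this permutation p was 0.0771 and did not pass 0.05.

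The difference had the same direction within days of culture. At 1 day the means were 80.6 above the median and 125.6 at or below it, lower in 3 of 4 animals (exact permutation p = 0.25, with 0.125 the smallest possible). At 2 days they were 80.7 and 119.6, lower in 4 of 5 animals (exact permutation p = 0.125, with 0.0625 the smallest possible). Among neurons with a total of at least 300000 counts, all 7 animals with both classes had the lower mean above the median, by 51.8. The part of the day in the difference over all neurons was not tested. Cell diameter had means of 40.1 ± 5.1 above the median and 43.5 ± 4.3 at or below it (SD, n = 8), was higher in 3 animals and lower in 5, and had an exact permutation p of 0.234.

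Within the 66 neurons, capacitance was lower at higher 20 Hz values. Spearman's rho between the value at 20 Hz and cslow was -0.74 over 66 cells. Within the 6 animals that had at least 6 of these cells it ran from -0.92 to 0.025 and was negative in 5. These are descriptions, since cells of an animal share their culture and recording days.

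**Figure D2:**
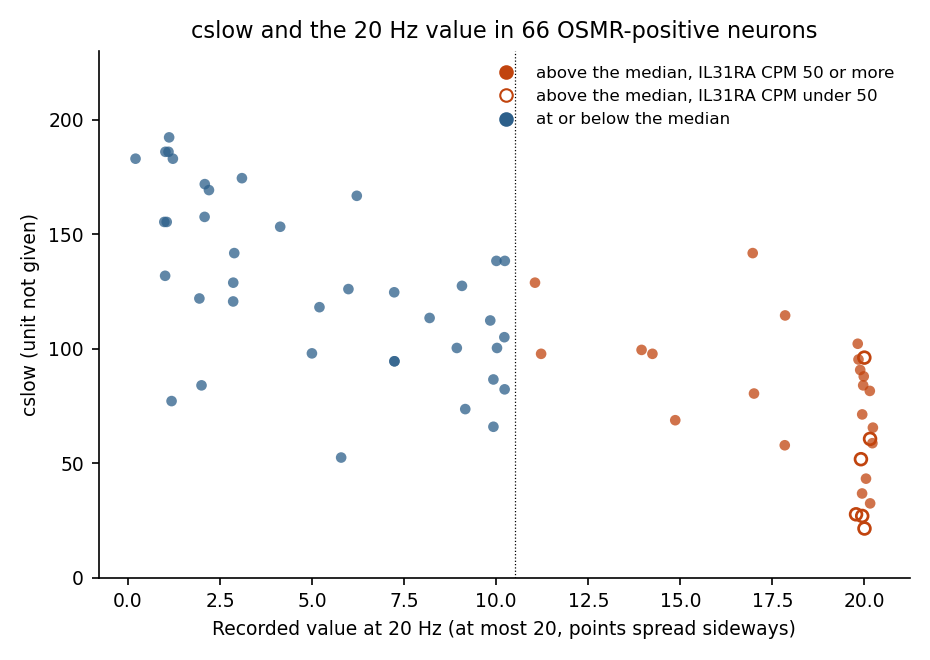
Capacitance (cslow, unit not given) against the recorded value at 20 Hz for each of the 66 OSMR-positive neurons, with points spread sideways by a small random amount and a dotted line at the split. Open circles are the 6 neurons above the median with IL31RA under 50 CPM. They lie between 21.5 and 96.1, and the neurons at or below the median reach 192.2.

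The columns whose names begin with ADS differed in the same animals. ADS is the usual abbreviation of activity-dependent slowing, and the files do not spell it out. These columns hold values for 75 successive pulses and were recorded in 47 of the 66 neurons, 18 above the median and 29 at or below it. The column for the first pulse of the family named ADS_RT_ABS had its lowest, median and highest values at 1.4, 3.85 and 5.0 above the median, against 4.15, 6.2 and 11.5 at or below it. The classes thus overlapped between 4.15 and 5.0. Over the 6 animals with both classes the means were 3.65 ± 0.84 and 6.23 ± 0.71 (SD), lower above the median in 6 of 6 animals. At pulse 75 they were 3.88 ± 0.96 and 6.78 ± 0.83. The exact sign-flip permutation p was 0.0312 for each of the 75 pulses, the smallest that 6 animals allow, and 0.0771 after adjustment. A difference of -2.58 was therefore already there at the first pulse, and it ran between -3.44 and -2.58 over the pulses.

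Of the other ADS families, ADS_TTP was lower above the median and 3 families were mostly higher. The column Delta.ind.time, an exact copy of the ADS_TTP column of pulse 75, averaged 0.232 ± 0.374 above the median and 0.552 ± 0.285 at or below it (SD, n = 6), lower in 6 of 6 animals with an exact permutation p of 0.0312 and an adjusted p of 0.0771. All 73 tested columns of the ADS_TTP family were lower on average above the median, 67 of them at an exact permutation p under 0.05. The ADS_Peak columns were higher on average above the median in 74 of 74 pulses, 13 of them with such a p. The ADS_RMP columns were higher in 74 of 74, 3 of them with such a p, and the ADS_Slope columns in 70 of 74, with 3 such p-values, all of columns higher above the median. For most ADS_Peak and ADS_RMP averages, which were negative, higher means less negative. ADS_RMP averaged -59.6 above the median and -60.4 at or below it at pulse 1, but -0.36 and -0.73 at pulse 2. Its first column is thus on another scale than the later ones. Over the 47 neurons, ADS_RT_ABS1 was higher in neurons of higher capacitance (Spearman's rho 0.85) and lower in neurons of higher 20 Hz value (rho -0.90), again as descriptions over cells.

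**Figure D3:**
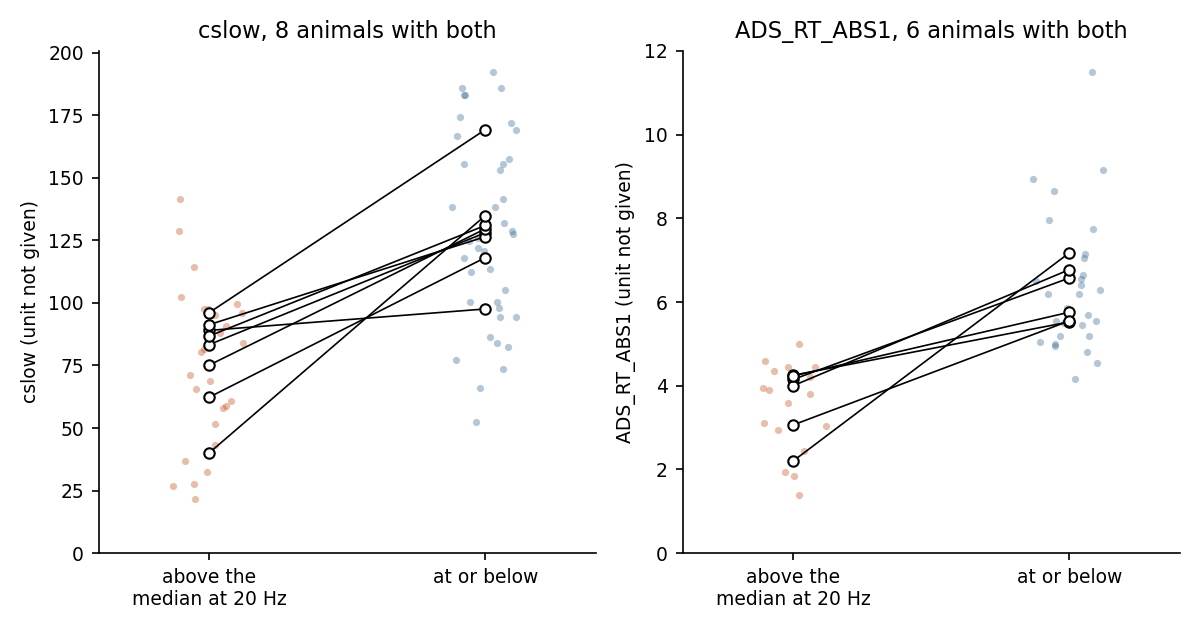
Capacitance (left, cslow) and the first pulse of the ADS_RT_ABS family (right), both without a stated unit, in OSMR-positive neurons above the 20 Hz median and at or below it. Small points are neurons, and white circles joined by a line are the means of 1 animal. The line goes up in all 8 animals for cslow and in all 6 for ADS_RT_ABS1.

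Across all recorded columns, none of which has a stated unit, no difference passed the adjusted threshold. Of 402 different columns tested, 0 (0%) had an adjusted p under 0.05 in the exact sign-flip permutation test, and 40.8% had an exact p under 0.05. Most of these were the slowing columns of consecutive pulses in the same neurons of the same 6 animals, so they are not separate results. Of the 32 columns not named ADS, 3 had an exact permutation p under 0.05. These were cslow, subthresh_slope_0.5 and Delta.ind.time, which as a copy of an ADS_TTP column belongs with the slowing columns, as does Delta.Rmem, a copy of an ADS_RMP column. The column subthresh_slope_0.5 averaged 9.32 ± 4.19 above the median and 5.44 ± 1.53 at or below it (SD, n = 8), was higher in 6 of 8 animals and had an exact permutation p of 0.0469. Action potential duration (APD) averaged 3.74 ± 1.02 above the median and 4.21 ± 0.43 at or below it, with an exact permutation p of 0.25 over 8 animals. Rheobase, the smallest current step that evokes a spike, averaged 189.1 ± 75.5 and 225.5 ± 104.03, with an exact permutation p of 0.461. Resting potential (RMP) averaged -58.6 ± 7.4 and -59.2 ± 4.4, with an exact permutation p of 0.82. The column Spontan_active was 1 in 5 of 27 neurons above the median, in 3 of 39 at or below it and in 27% of OSMR-low neurons.

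The relation of capacitance to the 20 Hz value was also there in OSMR-low neurons. Divided at the same value of 10, 89.3% of these neurons were above and 17 neurons at or below. Over the 8 animals with both, cslow averaged 58 ± 9.8 above 10 and 133.4 ± 19.5 at or below it (SD), lower above 10 in 8 of 8 animals (exact permutation p = 0.00781). In the same animals the difference was -51.4 in OSMR-positive and -75.4 in OSMR-low neurons. It was nearer to 0 in OSMR-positive neurons in 6 of 8 animals, by 24 ± 37.7 on average, with an exact permutation p of 0.117 for the difference between the 2 kinds of neuron. ADS_RT_ABS1 differed by -2.58 in OSMR-positive and -2.37 in OSMR-low neurons over 6 animals (exact permutation p = 0.844 for the difference). Of the 17 OSMR-low neurons at or below 10, 6 had IL31RA of at least 50 CPM, and the 11 others had a median cslow of 147.3.

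Set against OSMR-low neurons of the same animals, the class at or below the median passed the test in more of the recorded columns. Of 37 columns, in which the ADS families were kept for pulses 1 and 75 only, 0 (0%) passed an adjusted p of 0.05 for neurons above the median, and 2 (5.41%) had an exact permutation p under 0.05. For neurons at or below the median 16 (43.2%) passed, and 17 (45.9%) had such an exact permutation p. These counts were not tested against each other, and the tests differ in reach. Above the median 8 animals (6 for ADS columns) gave a smallest possible exact permutation p of 0.00781 (0.0312), and at or below it 10 animals (7) gave 0.00195 (0.0156). The OSMR-low neurons in this comparison were not chosen by their 20 Hz value, whereas both OSMR-positive classes were. Of these OSMR-low neurons 89.3% were above 10. In those at or below 10, cslow averaged 133.4 ± 19.5 over 8 animals (SD). The part of the split itself in the counts of columns was not tested. Capacitance averaged 78 ± 18.6 in OSMR-positive neurons above the median and 68.2 ± 13.5 in OSMR-low neurons (SD, n = 8), higher in 5 of 8 animals (exact permutation p = 0.234). In OSMR-positive neurons at or below the median it averaged 127.2 ± 18.4, against 64.8 ± 13.9 in OSMR-low neurons (SD, n = 10), higher in 10 of 10 animals (exact permutation p = 0.00195, adjusted 0.0181). APD averaged 3.74 ± 1.02 above the median against 2.76 ± 0.31 in OSMR-low neurons, higher in 7 of 8 animals, with an exact permutation p of 0.0234 and an adjusted p of 0.578. At or below the median it averaged 4.08 ± 0.47 against 2.79 ± 0.29, higher in 10 of 10 animals, with an adjusted permutation p of 0.0181.

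The labelled identity held in most but not all of the neurons above the median. IL31RA reached 50 CPM in 21 of the 27 and in all 39 neurons at or below the median. Its lowest, median and highest levels were 0, 505.3 and 1510 CPM above the median, against 105.9, 858.2 and 1622 CPM at or below it. SST reached 50 CPM in 17 of 27 and 33 of 39 neurons, and IL31RA and SST together in 16 and 33. JAK1 had a median of 844.3 CPM above the median and 1493 CPM at or below it, and NPPB 606.8 and 1035 CPM. In OSMR-low neurons the medians were 4.06 CPM for IL31RA, 6.37 CPM for SST, 157.3 CPM for JAK1 and 230.1 CPM for NPPB. CYSLTR2, a leukotriene receptor gene of the same C-fibre class, had medians of 15.0 CPM above the split, 45.7 CPM at or below it and 0 in OSMR-low neurons.

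The 6 neurons with IL31RA under 50 CPM all had the highest 20 Hz value, 20. They came from animals 1, 6, 9 and 10. Their OSMR level was between 50.3 and 79.1 CPM in 5 of them and 685.7 CPM in the remaining one, which also had 1890 CPM of the macrophage gene CTSS. ADCYAP1, which codes for the neuropeptide PACAP and is a marker of another peptidergic C-fibre class, reached 4144, 2064 and 468.1 CPM in the 3 highest. PCP4, listed here as a marker of cold-sensing neurons, reached 50 CPM in 4 of the 6, and TRPM8, the cold receptor channel, in 2, at 697.5 and 129.6 CPM. CTSS reached 50 CPM in 4 of the 6. The median cslow of these 6 was 39.7, against 84 in the 21 other neurons above the median. Without the 6 neurons and with the split left at 10, cslow averaged 83.5 above the median and 123.7 at or below it in 7 animals, lower in 6 (exact permutation p = 0.0312).

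**Figure D4:**
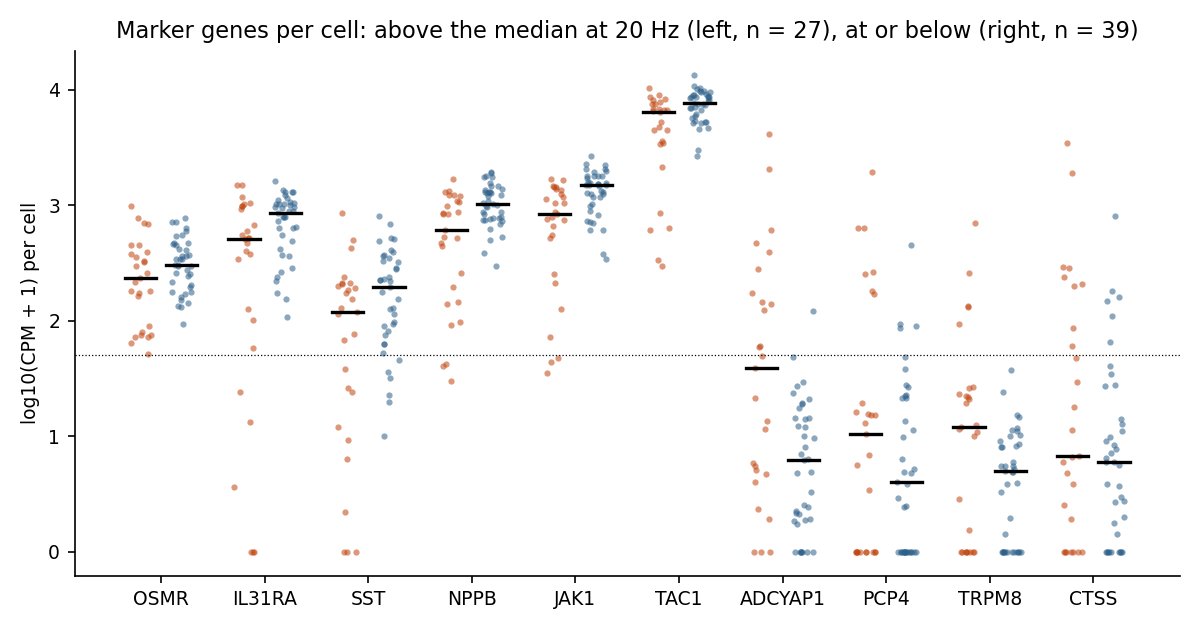
Level of 10 marker genes in each OSMR-positive neuron as log10(CPM + 1), above the 20 Hz median (left of each pair, n = 27) and at or below it (right, n = 39), with black bars at the medians and a dotted line at 50 CPM. Neurons with IL31RA at or near 0 and those with the highest ADCYAP1 are all in the left columns.

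Other cell types' genes were read in both classes. The 13 macrophage markers summed to a median of 116.1 CPM above the median, with a range of 10.6 to 6899 CPM, and to 63.2 CPM at or below it, with a range of 8.24 to 1914 CPM. TYROBP and C1QC had a median of 0 in both classes. CTSS reached 500 CPM in 2 neurons above the median and 1 at or below it, and without these 3 neurons the capacitance difference was -47.0 over 6 animals, lower in 6. The 14 measured markers of satellite glia summed to medians of 527.4 and 228.7 CPM, and FABP7 had a median of 0 in both. The 14 measured Schwann cell markers summed to medians of 1274 and 1852 CPM. The A-fibre marker PVALB had a median of 0 in both classes and reached 50 CPM in 1 neuron above the median, at 260.8 CPM. The 15 measured A-fibre markers summed to medians of 2701 and 3159 CPM. The part of these reads in the gene differences was not tested.

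No gene passed the adjusted threshold between the classes. Counts were summed over the cells of an animal and class, which gave 14 sums of 2 to 8 cells, 7 per class, with 6 animals on both sides and totals of 1025186 to 15695613. Of 13565 genes tested with edgeR's quasi-likelihood test, 0 (0%) had an adjusted p under 0.05, and the smallest adjusted p was 0.9999. An unadjusted p under 0.05 was found for 301 genes (2.22%), 49.2% of them higher above the median. DESeq2 gave 0 adjusted calls with 712 unadjusted among 27923 genes, a larger set than that of edgeR. Limma on cell means gave 0 with 506 among 13565 genes. Over the 13565 genes the log2 fold change had a median of -0.04. Where the filter on low counts was left out, edgeR called 15 of 27923 genes (0.0537%), 7 higher and 8 lower, and at 1 day in culture alone it called 1 of 12748 (0.00784%). That gene, at 1 day, was ADCYAP1.

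Among the 10 named genes higher above the median, ADCYAP1 had the largest fold change. In single neurons its lowest, median and highest levels were 0, 38.1 and 4144 CPM above the median, against 0, 5.20 and 121.4 CPM at or below it. It reached 50 CPM in 12 of 27 and 1 of 39 neurons, so the high neurons were nearly all in the upper class. OSMR-low neurons had a median of 1509 CPM. In the sums, log2 CPM above the median was 6.10 in animal 1, 3.62 in animal 2, 1.13 in animal 4, 5.72 in animal 5, 3.96 in animal 7, 10.06 in animal 9 and 9.38 in animal 10. At or below the median it was 1.99 in animal 1, -0.21 in animal 2, 3.44 in animal 4, 1.71 in animal 5, 2.76 in animal 6, 2.46 in animal 7 and 4.73 in animal 9. Animals 9 and 10, the highest, are the animals of 4 of the 6 neurons low in IL31RA. The log2 fold change was 3.15 ± 0.89 (SE; higher in 5 of 6 animals), with an unadjusted edgeR p of 0.00328 and an adjusted p of 0.9999. With the filter on low counts left out, the adjusted edgeR p was 7.87e-10. The log2 fold change was then 3.11 ± 0.41, near that of the main fit but with a smaller SE. At 1 day alone the adjusted edgeR p was 0.0325 at 4.69 ± 0.54. The adjusted p was 0.433 with DESeq2 and 0.998 with limma on cell means. At 2 days the log2 fold change was 0.12 ± 0.86. Without the 6 neurons low in IL31RA it was 2.48 ± 0.92 with the split left at 10. With the split at the median of the neurons kept it was 1.57 ± 1.11. Split in that way, it was 1.23 ± 1.05 among neurons with ADCYAP1 under 50 CPM and 0.29 ± 1.13 among those with OSMR of at least 200 CPM. The limit on ADCYAP1 takes out the neurons highest in that gene, so 1.23 cannot show how stable the difference is.

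The genes of smallest unadjusted p, none past the adjusted threshold, had these values. In both directions genes were taken only with at most 1 animal against the direction. The counts of animals given for them therefore partly follow from that choice. RHOB, a small GTPase gene that responds early to stress and growth signals, had a log2 fold change of 0.94 ± 0.24 (SE) and was higher in 6 of 6 animals (unadjusted edgeR p = 0.00156). Its sums averaged 7.07 ± 0.99 above the median and 6.04 ± 1.05 log2 CPM at or below it (SD, n = 7 each), so the classes overlapped between animals. The medians of RHOB in single neurons lay close together, at 70.4 CPM above the median, 62.4 CPM at or below it and 73.7 CPM in OSMR-low neurons. GADD45A, a gene of the DNA damage and axon injury response, had 1.25 ± 0.42 and was higher in 5 of 6 animals. In single neurons its median was 54 CPM above the median and 11.3 CPM at or below it. The other 7 genes of the higher set were FAM222B, PCDH9, EXOC6B, BMI1, MLEC, MACO1 and TSC22D2, with log2 fold changes of 0.84 to 1.37. BMI1 codes for a Polycomb repressor subunit and PCDH9 for a protocadherin, a cell adhesion protein.

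On the lower side, ANO3, which codes for a TMEM16-family membrane protein known in rat sensory neurons as a partner of a sodium-activated potassium channel, had a log2 fold change of -0.84 ± 0.26 (SE) and was lower in 6 of 6 animals (unadjusted edgeR p = 0.00597). Its lowest, median and highest levels in single neurons were 0, 43 and 232.3 CPM above the median, against 8.49, 103.3 and 241.2 CPM at or below it. OSMR-low neurons had a median of 3.78 CPM. HAX1, a mitochondrial protein gene that protects against apoptosis, had -1.12 ± 0.31 and was lower in 6 of 6 animals (unadjusted edgeR p = 0.00322), with 5.55 log2 CPM in animal 10 and at most 5.07 in the other 6 sums above the median, against at least 5.39 in the 7 sums at or below it. CYTB, the mitochondrially encoded cytochrome b, had -0.67 ± 0.23 and was lower in 6 of 6. PTGER2, a prostaglandin E2 receptor gene, had -1.63 ± 0.54 and was lower in 6 of 6. The lower set also held PPIP5K2, LRRTM2, ST6GALNAC5, GGH and PAQR3, with log2 fold changes of -1.69 to -0.82.

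**Figure D5:**
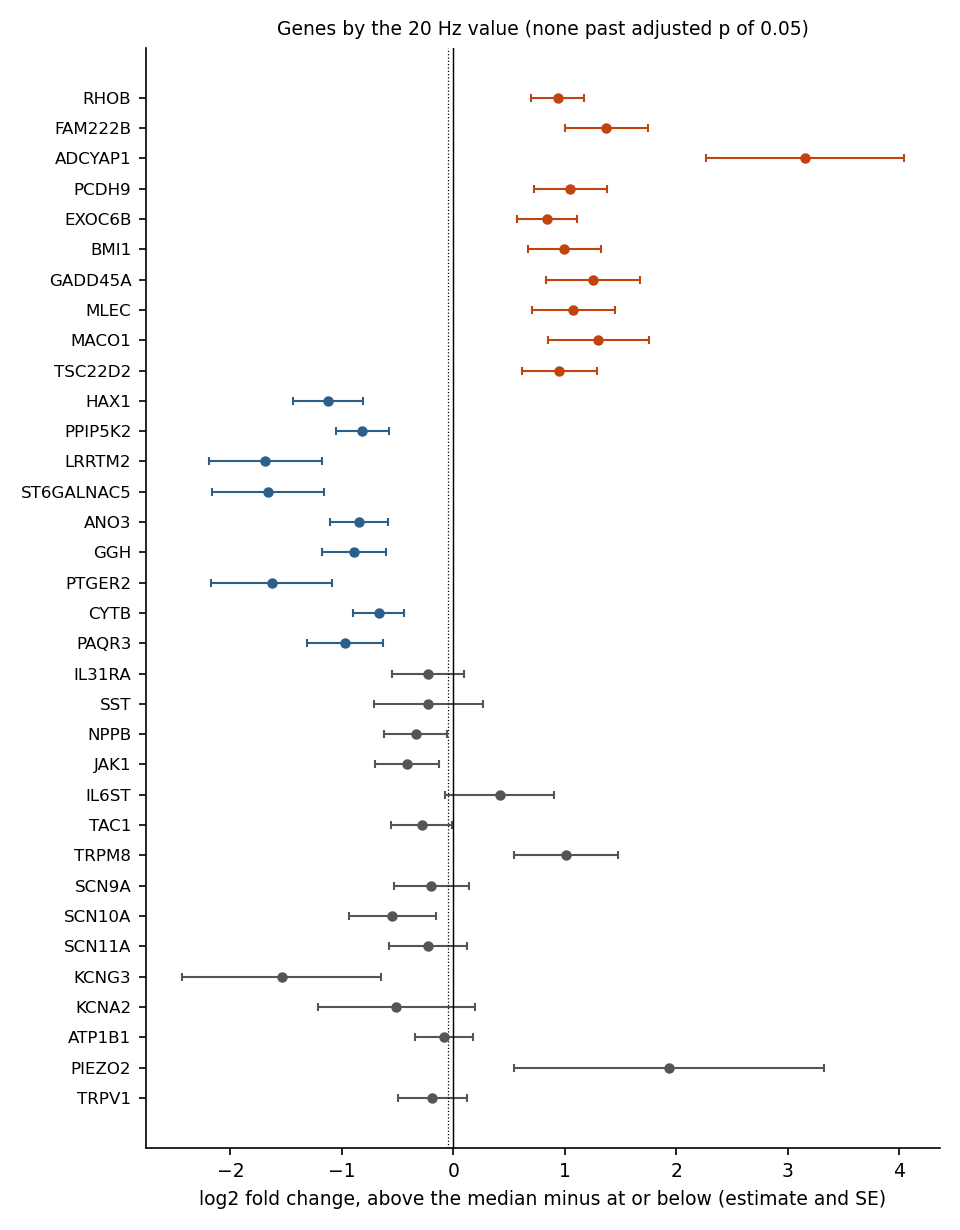
Log2 fold change, above the 20 Hz median minus at or below it, with its standard error, from edgeR on sums per animal and class. Orange and blue are genes of smallest unadjusted p in each direction, grey are the other fixed genes, and the dotted line is the median of all 13565 genes, -0.04. ADCYAP1 is farthest to the right at 3.15, and no gene passes the adjusted threshold.

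OSMR apart, on which the neurons were chosen, no gene of OSM and IL-31 signalling passed the test. Of the 11 other tested members of that list, 0 were called and 0 had an unadjusted edgeR p under 0.05. Their median log2 fold change was -0.20. The receptor genes had -0.22 ± 0.32 (IL31RA), -0.28 ± 0.31 (LIFR) and 0.41 ± 0.49 (IL6ST). In single neurons IL6ST had medians of 53.1 CPM above the split and 20.8 CPM at or below it. It reached 50 CPM in 14 of 27 and 5 of 39 neurons, and was at 0 in 7 and 2. A single sum of IL6ST at or below the median stood apart at 7.82 log2 CPM, with the next at 5.14. JAK1 had -0.42 ± 0.29, lower in 5 of 6 animals, and Spearman's rho between its CPM and the 20 Hz value was negative in all 6 animals with at least 6 cells, from -0.64 to -0.18, as a description. Of the 12 tested genes of the OSMR and SST C-fibre list, 11 had a lower estimate above the median and 1 a higher one, with a median of -0.30, and none had an unadjusted p under 0.05. SST had -0.23 ± 0.49, NPPB -0.34 ± 0.28 and the transcription factor gene ETV1 -0.36 ± 0.33. Over all genes tested, 7421 of 13565 had a lower estimate.

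Genes of sodium and potassium channels and their partner proteins, which set how a membrane fires, had mostly lower estimates above the median and no calls. Over all genes tested, lower estimates were found for 7421 of 13565, and the counts of these lists were not tested against that share. Of 12 genes tested from the list of sodium channels and partners, such as FGF12, 11 had a lower estimate, with a median of -0.35 and no unadjusted edgeR p under 0.05. SCN9A, SCN10A and SCN11A, which code for the channels Nav1.7, Nav1.8 and Nav1.9 of nociceptors, had -0.20 ± 0.33, -0.55 ± 0.39 and -0.23 ± 0.35. In single neurons the median of SCN11A was 441.7 CPM above the median and 769.6 CPM at or below it, against 44.8 CPM in OSMR-low neurons. Of 26 genes tested from the list of potassium channels and partners 19 had a lower estimate, with a median of -0.40. Only KCNIP1, a Kv4 channel partner, had an unadjusted p under 0.05, at -0.87 ± 0.40 (p = 0.0475). KCNG3, a silent Kv subunit, had -1.54 ± 0.89, and it was not read in 17 of 27 neurons above the median and 9 of 39 at or below it. KCNA2, the subunit Kv1.2, had -0.51 ± 0.70.

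Of the other channel lists, the 7 calcium channel genes had a median of -0.32 with 6 lower estimates, and the 2 tested genes of the list of HCN pacemaker channels and their partners -0.50. HCN2 did not pass the filter on low counts and was at 0 in 24 of 27 and 30 of 39 neurons. The 9 sodium pump and exchanger genes had a median of 0.00, with ATP1B1, a pump subunit, at -0.08 ± 0.26. The pump restores the sodium gradient after firing. The 12 chloride channel and transporter genes had a median of 0.13, where only ANO3 had an unadjusted edgeR p under 0.05. Among 11 TRP channel genes the median was -0.17, with TRPM8 at 1.01 ± 0.47 (p = 0.0478, higher in 4 of 6 animals) and TRPC5 at -2.26 ± 1.02 (p = 0.0444) as those with an unadjusted edgeR p under 0.05. TRPV1, the capsaicin receptor, had -0.19 ± 0.31. Among 9 mechanosensor and acid sensor genes the median was 0.15, with PIEZO2, the touch channel, at 1.93 ± 1.39 and TMC3 at -0.68 ± 0.29 (unadjusted p = 0.0363). CHRNA3, a nicotinic receptor gene known in mice and humans as a marker of silent nociceptors, did not pass the filter and was at 0 in 17 of 27 and 23 of 39 neurons.

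Markers of other neuron classes gave no calls either. The 12 peptidergic C-fibre genes had a median of -0.03, with ADCYAP1 and FAIM2 (1.85 ± 0.85) the genes with an unadjusted edgeR p under 0.05, and TAC1, the gene of substance P, at -0.28 ± 0.27. The 7 non-peptidergic C-fibre genes had a median of -0.28, the 4 cold neuron genes, of which TRPM8 is the only one with an unadjusted edgeR p under 0.05, 0.51 with PCP4 at 2.03 ± 1.19, and the 9 A-fibre genes 0.00. The 12 neuropeptide genes, again with ADCYAP1, had a median of -0.25, and the 12 sensory transcription factor genes -0.01 with ONECUT2 at 1.85 ± 0.76 (unadjusted p = 0.0292). Among lists of cell state, the 18 axotomy and regeneration genes, with GADD45A, had a median of -0.15, the 7 immediate early genes -0.30, the 17 synaptic release genes 0.05 and the 13 cell stress genes 0.09, with NUPR1, a stress-induced transcription regulator, at 2.00 ± 0.80 (unadjusted edgeR p = 0.0257). The 15 cytoskeleton and axon size genes had a median of -0.22, with ANK3, the ankyrin that anchors sodium channels at the axon initial segment, at -0.65 ± 0.30 (unadjusted p = 0.0471). The lists of satellite glia, Schwann cells, macrophages, and fibroblasts and vessels had medians of -0.05, -0.05, 0.11 and -1.09 over 11, 9, 6 and 6 tested genes, with no unadjusted p under 0.05.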

How the data were processed

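Gene expression was deposited as estimated counts of 30420 genes, unscaled, of which 52.1% of values above 0 are not whole; 14867 identifiers matched a symbol. Base calls were converted with bcl2fastq 2.20, per the submitters' processing notes, the aligner, annotation and genome build being not given in the sources used here. Electrical recordings were deposited as other values without stated units, a line for each cell, and 43 of the 269 lines were not used. Cells were picked singly, so no doublet caller was run. Smart-Seq2 carries no molecular identifiers and does not mark the strand, so overlapping genes could not be told apart, and near-identical genes may share reads.

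The members, gene lists and tests were chosen with earlier results of these data known. CPM is the count divided by the cell's total. For each animal, the counts of a class were summed over 2 or more cells, rounded, and fitted with edgeR 4.0.16 under R 4.3.3 (TMM, filterByExpr, quasi-likelihood test, animal as a block, Benjamini-Hochberg at 0.05); log2 CPM of sums uses a prior count of 2. Animals pair the classes because cells of both came from the same pig. Fold changes are above the median minus at or below it. Recorded columns needed values in 70% of members, 5 different values and 6 animals, and class means per animal were compared with an exact two-sided sign-flip permutation test. Named genes were the 10 of smallest unadjusted p in each direction, where too few passed, among those over 4 log2 CPM with a symbol and at most 1 animal against the direction, the 22 fixed genes, and up to 4 genes a list; some of these genes are not reported here. DESeq2 1.42.0 and limma 3.58.1, with log2(CPM + 1), were alternatives. The comparisons with OSMR-low neurons and of the day of recording, and the alternatives without CTSS-rich neurons, without neurons low in IL31RA at the same split, by day and class, at 2 days alone and with 2 pulses of the ADS columns, were added after the data had been seen. The edgeR fit and the sign-flip test were tested on simulated data. Replicates are animals, and p-values measure the spread between them.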

Additional observations from a re-analysis of the deposited data

Results flagged for a closer look

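Of 82 sets of animals looked at, 5 had an animal far from the others by Dixon's test, which flags about 1 set in 20 by chance. TRPM8 had 7.79 log2 CPM in 1 sum of neurons above the median (animal 10), with the next at 4.66, and that sum holds the neuron with 697.5 CPM. IL6ST had 7.82 in 1 sum at or below the median (animal 5), with the next at 5.14. MACO1 was low in 1 sum at or below the median, at 2.52, with the next at 3.15. Capacitance averaged 169.2 in the 2 neurons of animal 6 at or below the median, with the next animal at 134.9. Diameter averaged 34.1 in the neurons of animal 2 at or below the median, with the next at 42.3. No explanation of these values was tested.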

How the results depend on the processing

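The count of genes past the adjusted threshold was 0, and it was 15 (7 higher, 8 lower) without a filter on low counts and 1 at 1 day in culture; the cause of either was not tested. It was 0 under the other 26 alternatives, with 0 to 0 when each animal was left out in turn, and 0 with no replicate block, that is without the animal in the model, where 422 genes had an unadjusted p under 0.05, against 301 with it. Over all alternatives that number was at most 783, among the 27923 genes tested without the filter. Of the 15, 3 have no symbol, and the others were ADCYAP1, PCP4, NUPR1, CHST9 and GOLPH3L, which were higher above the median, and CXCL10, MMP1, CCL8, CCL2, RASL11A, CCN2 and RAB27A, which were lower. The count of recorded columns was 0 under all 24 alternatives, and 0 to 0 when each animal was left out. At 1 day and at 2 days no call was possible, as the smallest exact permutation p was 0.125 and 0.0625. Where animal 4, 5, 6, 7, 9 or 10 was left out, only 29 columns were tested. The capacitance difference kept its sign in all of them, from -59.9 to -38.9, and ADS_RT_ABS1 in the 13 that could be computed. Animals 1, 2, 3 and 8 did not have both classes for ADS_RT_ABS1, so leaving them out could not change it. For capacitance this held for animals 3 and 8. Leaving out animal 4, 5, 6, 7, 9 or 10 left too few animals to compute ADS_RT_ABS1. Of the 10 genes of the higher set 7 kept their sign under all alternatives and of the lower set 9. Of all named genes 49 did and 65 did not. No value of theirs past the threshold had the sign opposite to the main fit. PCP4, called without the filter, had the other sign under 4 alternatives, down to -1.79, and was not called there. The median over all genes moved to -0.21 on the log2 scale with only the value 20 counted as above, and to -0.15 at 1 day. With 6 to 8 animals the sign-flip test cannot reach an adjusted p of 0.05 over 402 columns unless many columns share the smallest p. The same holds over 29 columns with 7 animals.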
